A study of Mus musculus with 2 samples.

Results

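A set of 10 activity-induced genes was read together in mouse hippocampus: the orphan nuclear receptor genes Nr4a1, Nr4a2 and Nr4a3, the transcription factor genes Npas4, Klf4 and Ier2, the synaptic effector genes Arc and Homer1, and the phosphatase genes Dusp1 and Dusp6. They were taken by name: every non-control probe whose RefSeq accession mapped to one of these symbols was used, and a gene was represented by its brightest probe. All 10 were measured, by 13 probes, among 23604 genes and transcripts that stood clearly above background in each RNA on each array, 13319 of them with a gene symbol. The genes were named with earlier results of these data known.

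The RNA came from the hippocampus of male C57BL/6J mice, 11 weeks old and weighing 26 to 28 g. After 1 week on plain chow, one group ate powdered chow holding 0.5% by weight of a powder with 2% astaxanthin (ASX), a red carotenoid of the alga Haematococcus pluvialis, and the control group ate chow with 0% of it and a placebo powder, both for 4 weeks. Each of 2 two-colour arrays set 1 ASX RNA against 1 control RNA, with ASX in Cy5 and control in Cy3 on array 1 and the dyes exchanged on array 2. Each array is titled with 4 mice, the labels do not say how their RNA was combined, and the arrays were counted as a dye swap of 1 pair of RNAs, that is 1 replicate of the diet comparison. No p-value for the diet can be had from them, and the SD given below is the technical spread between the arrays, any dye effect of a probe included.

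Immediate early genes are transcribed within minutes of strong synaptic input, before any new protein is made, through kinases and calcium signals that act on factors already bound to their promoters, CREB and SRF among them. In the hippocampus their messages mark recently active neurons, and some of their products, Arc and the short form of Homer1, act directly at the synapse. Others feed back on the signal: Dusp1 and Dusp6 encode phosphatases that switch off MAP kinases.

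The core of the cyclic AMP response element, to which CREB binds, is TGACG, and the full palindromic element is TGACGTCA. Promoter sequences of 8 of the 10 genes were at hand from RefSeq (GRCm38.p6), 9 windows in all with 2 for Homer1, and the 250 bases before the start were searched on both strands. TGACG, or its reverse complement, was present for 7 of the 8 genes, whereas 17.9% of 27025 promoters of the same length held it, as did 27.7% of the 7446 promoters with at least 60% G and C. The full element was found for Dusp1 alone among the 8, and in 1.62% of all promoters; it holds TGACG on either strand, so it is counted under both motifs. The CArG box bound by SRF and the Nr4a element AAAGGTCA were in none of the 9 windows and in 1.4% and 1.31% of all promoters. A match describes letters, not binding, and nothing was measured at these sites. The windows of the 2 genes with the lowest ratios below, of the gene with the full element, and of the gene with no match are shown 5′ to 3′, ending at the base before the start; capitals mark TGACG or its reverse complement CGTCA.
Npas4, chr19:4989972-4990221, minus strand: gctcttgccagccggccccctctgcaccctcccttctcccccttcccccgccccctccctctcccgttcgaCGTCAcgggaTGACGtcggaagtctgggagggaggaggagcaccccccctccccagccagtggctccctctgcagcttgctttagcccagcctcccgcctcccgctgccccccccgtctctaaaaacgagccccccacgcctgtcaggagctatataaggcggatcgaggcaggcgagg
Nr4a2, chr2:57124004-57124253, minus strand: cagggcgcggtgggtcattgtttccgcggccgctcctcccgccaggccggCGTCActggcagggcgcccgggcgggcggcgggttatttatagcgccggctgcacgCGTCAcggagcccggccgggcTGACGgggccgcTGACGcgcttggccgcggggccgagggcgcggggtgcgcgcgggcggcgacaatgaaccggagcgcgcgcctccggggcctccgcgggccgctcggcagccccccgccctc
Dusp1, chr17:26508473-26508722, minus strand: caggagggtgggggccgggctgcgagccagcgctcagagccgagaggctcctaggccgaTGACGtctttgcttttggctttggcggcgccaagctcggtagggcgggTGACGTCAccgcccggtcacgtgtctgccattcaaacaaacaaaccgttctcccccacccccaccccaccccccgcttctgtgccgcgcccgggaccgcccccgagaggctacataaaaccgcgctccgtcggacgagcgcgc
Dusp6, chr10:99262981-99263230, plus strand: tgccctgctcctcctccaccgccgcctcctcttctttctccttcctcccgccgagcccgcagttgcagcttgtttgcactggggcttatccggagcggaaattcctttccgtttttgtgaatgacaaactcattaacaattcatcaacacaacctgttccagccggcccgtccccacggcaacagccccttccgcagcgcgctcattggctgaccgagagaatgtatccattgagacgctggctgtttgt

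Relative to control, 9 of the 10 genes were lower in the ASX RNA on both arrays and 0 were higher on both, while 23.0% of all genes and transcripts were lower on both and 22.2% higher. Among genes with a symbol the shares were 26.4% and 14.3%. Homer1 was the exception. The differences were small. The median over the 10 genes was a log2 ratio of -0.17, with -0.20 on array 1 and -0.12 on array 2, against -0.0042 over all genes and transcripts and -0.02 over those with a symbol. None of the 10 was at least 1.5-fold apart on both arrays, a size that 0.0212% of all genes reached on the lower side and 0.0635% on the higher, and none was at least 1.2-fold lower on both, against 0.314% of all genes. Mean ratios ran from 0.797 for Npas4 to 0.992 for Homer1. The 10 means were all below 0, as were 52.0% of all means, and 6 of them (Npas4, Nr4a2, Arc, Klf4, Ier2 and Dusp6) lay at or below the 5th percentile of all means. In whole tissue, fewer cells of a type and less RNA per cell cannot be told apart.

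**Figure D1:**
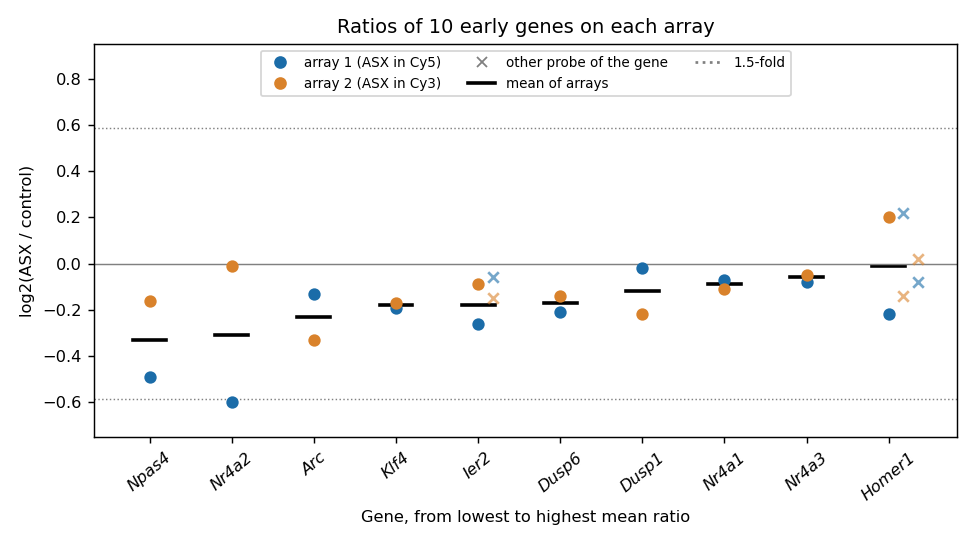
Log2 ratio of ASX over control (vertical axis) for each of the 10 genes on array 1 (blue) and array 2 (orange); crosses are other probes of the same gene, black bars the mean of both arrays and dotted lines 1.5-fold. All points of the main probes except Homer1 on array 2 lie below 0, and the arrays lie farthest apart for Nr4a2.

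The Nr4a genes encode nuclear receptors that need no known ligand to work: Nr4a1 is Nur77, Nr4a2 is Nurr1 and Nr4a3 is NOR-1. Nr4a2, needed for midbrain dopamine neurons and also induced by hippocampal activity, had a deposited processed intensity of 7137 in the ASX RNA and 10574 in the control RNA on array 1. On array 2 the pair was 6603 and 6805. The 2 RNAs were thus well separated on the first array and nearly equal on the second. After background correction and loess its log2 ratios were -0.60 and -0.01, a mean ratio of 0.808 with an SD between arrays of 0.42 on the log2 scale. The difference was seen on array 1 only: on array 2 alone the ratio is 0.992. A single array mixes the diet difference with any dye effect of the probe, which the mean over the dye swap cancels. The part of the log2 ratio that went with the dyes was -0.30 for Nr4a2, beside a mean of -0.31. A dye effect and other spread between the arrays cannot be told apart.

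Nr4a1 is a receptor gene induced in neurons and in immune cells. Its deposited processed intensity was 11519 (ASX) and 12004 (control) on array 1 and 9750 (ASX) and 10686 (control) on array 2. The ASX value was the lower of each pair, by a larger share on array 2. Its log2 ratios were -0.07 and -0.11, with a mean ratio of 0.941 and an SD of 0.030. Nr4a3, the third receptor, was dim, at 50.2 in the ASX RNA and 51.3 in the control RNA on array 1 and at 30.9 and 37.7 on array 2. Its log2 ratios were -0.08 and -0.05 (SD 0.025). The size of its difference depended on the scaling: the scanner's own ratios were -0.03 and -0.28, and with each array centred on its median the mean was 0.03, on the other side of 0.

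Npas4 encodes a factor that neurons induce selectively after calcium influx and that adjusts inhibitory synapses. It had the lowest mean of the 10. The deposited intensity was 187 in the ASX RNA and 266 in the control RNA on array 1, and 166 and 197 on array 2. Both arrays put the ASX RNA lower. The log2 ratios were -0.49 and -0.16, a mean ratio of 0.797 with an SD of 0.23. Its mean stood at percentile 0.36 of all genes and transcripts.

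Klf4, a zinc finger factor known from stem cells and from restraint of axon growth, gave the most even reading of these transcription factor genes. Its intensity was 1366 (ASX) and 1591 (control) on array 1 and 1128 (ASX) and 1269 (control) on array 2. The log2 ratios were -0.19 and -0.17 (SD 0.017), a mean ratio of 0.882. Ier2, a small nuclear protein gene of the rapid response to growth factors, had 297 and 371 on array 1 but 280 and 290 on array 2. Its log2 ratios were -0.26 and -0.09 (SD 0.12). A dimmer second Ier2 probe was also below 0 on both arrays, at -0.06 and -0.15.

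Arc encodes a protein, related to retroviral Gag, that removes AMPA receptors from active synapses. Its deposited intensity was 9139 in the ASX RNA and 9730 in the control RNA on array 1, and 6684 and 8404 on array 2. The difference was larger on array 2, the reverse of Npas4 and Nr4a2. The log2 ratios were -0.13 and -0.33, a mean ratio of 0.851 with an SD of 0.14, at percentile 1.13 of all means.

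Homer1 encodes a scaffold of the postsynaptic density, made as long forms and as a short, activity-induced form. Its brightest probe, designed on NM_152134, had opposite signs on the arrays, at -0.22 and 0.20. Both dimmer probes, designed on NM_011982, also changed sign, at 0.22 and -0.14 for one and at -0.08 and 0.02 for the other. The 3 probes therefore gave no direction for the diet on either RefSeq transcript, and their means were -0.01, 0.04 and -0.03. Which forms of the message each probe reads was not analysed here.

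Dusp1, which acts on p38, JNK and ERK in the nucleus, and Dusp6, which acts on ERK in the cytoplasm, are both induced by the kinases that they switch off. Dusp6 had intensities of 5271 (ASX) and 5998 (control) on array 1 and of 4756 (ASX) and 5357 (control) on array 2. The ASX RNA was lower by a similar amount on each, with log2 ratios of -0.21 and -0.14 (SD 0.046) and a mean ratio of 0.887. Dusp1 had 662 and 681 on array 1 and 536 and 627 on array 2. The RNAs were close on the first array and apart on the second, with log2 ratios of -0.02 and -0.22, a mean ratio of 0.92 and an SD of 0.14.

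**Figure D2:**
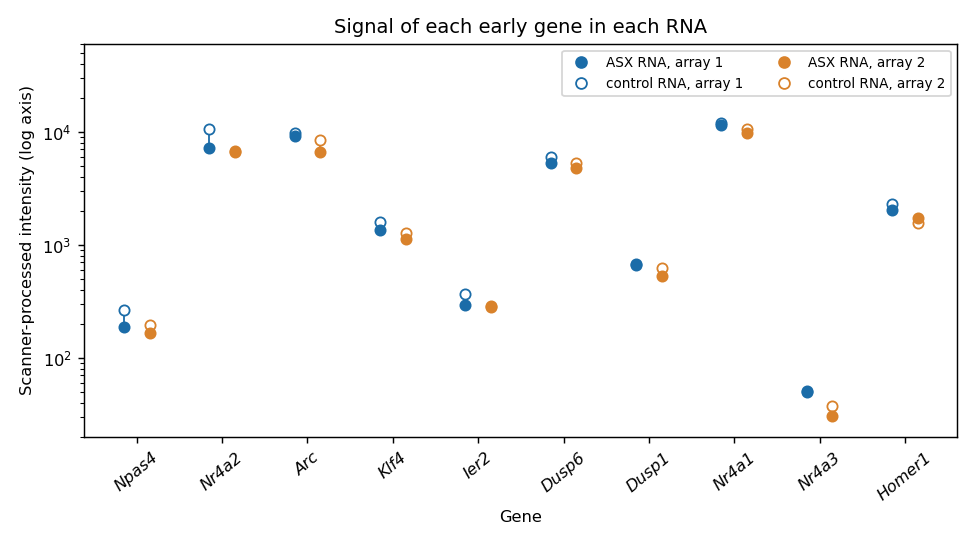
Deposited processed intensity (vertical log axis, no unit) of each gene's brightest probe in the ASX RNA (filled) and control RNA (open), array 1 in blue and array 2 in orange. The filled point is the lower of each pair for every gene except Homer1 on array 2; intensities of different probes are not comparable as amounts of message.

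From lowest to highest mean the order was Npas4, Nr4a2, Arc, Klf4, Ier2, Dusp6, Dusp1, Nr4a1, Nr4a3 and Homer1. No gene in that order was separated from the next by more than the pooled SD of the pair. The smallest SD of a neighbouring pair, 0.027 for Nr4a1 and Nr4a3, still exceeded their gap of 0.02. Neighbouring ranks are thus not resolved by these arrays.

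The scanner's own log ratio carries an error estimate per spot, which covers technical error. For the 10 brightest probes this deposited error was 0.20 to 0.25 on the log2 scale. The ratio was larger than its error for 4 of the 10 on array 1 (Nr4a2, Npas4, Klf4 and Ier2) and for 4 on array 2 (Nr4a3, Npas4, Arc and Dusp1), against 29.1% and 26.3% of all genes and transcripts. Npas4 alone was beyond the error on both arrays, lower each time, against 1.85% of all genes.

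**Figure D3:**
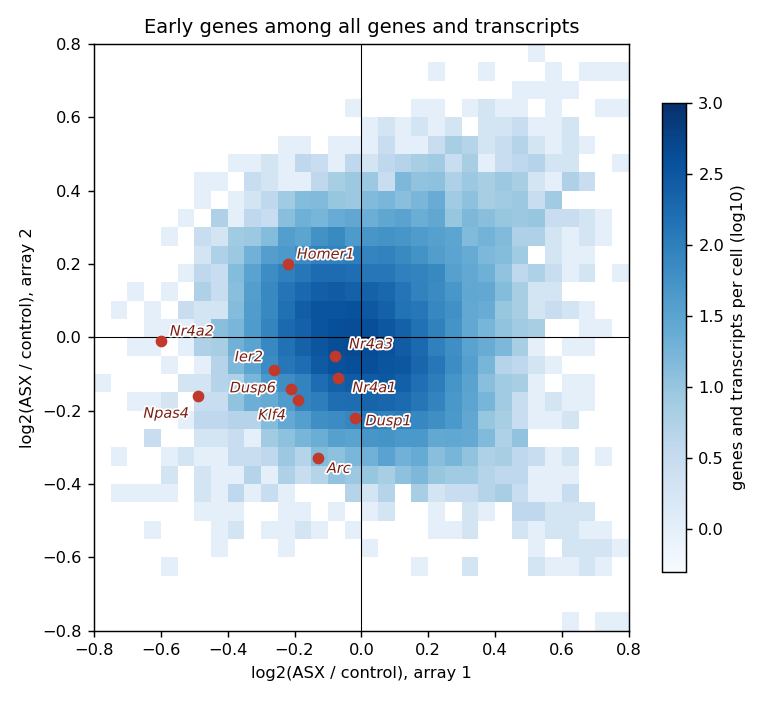
Log2 ratio of ASX over control on array 1 (horizontal) against array 2 (vertical) for all genes and transcripts, shaded by their number per cell on a log10 scale, with the 10 early genes in red. In all, 9 red points lie at the lower left, below 0 on both axes, and Homer1 lies at -0.22 and 0.20. Cells beyond 0.8 on either axis are not drawn.

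Across all genes and transcripts the turned ratios of the arrays had a Pearson correlation of -0.029 (genes are not independent replicates), so a gene's sign on one array said little about its sign on the other. The share lower on both arrays also moved with brightness, from 27.2% in the second-dimmest of 4 equal groups of genes to 17.6% in the brightest. Of the 10 genes, 3 were dimmer than the median gene (Nr4a3, Npas4 and Ier2). The offset of 50 added to every corrected intensity pulls the ratio of a dim probe toward 0.

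A further 7 lists of related genes, chosen with earlier results of these data known, set the 10 genes among their pathway. Of all genes and transcripts 23.0% were lower on both arrays and 22.2% higher, and these shares depended on the scaling: with median centring they were 48.1% and 20.6%, and with spike-in centring 69.8% and 2.12%. With spike-in centring 0 genes were higher on both arrays in each of the 7 lists. Other activity-induced transcription factor genes were lower on both arrays in 15 of 21 measured cases and higher in 2 (Klf2 and Csrnp1), with a median log2 ratio of -0.12. Egr2, a zinc finger factor gene, was the only one past 1.5-fold, with -0.80 and -0.75. Fos, a subunit of AP-1, had -0.36 and -0.52, and Egr1 had -0.36 and -0.45. The transcription factor genes of the 10 and of this list thus lay mostly on one side. Of 30 other induced effector genes, 10 were lower on both arrays, 0 were higher on both and 20 had opposite signs, with a median of -0.07; with median centring 23 were lower, 1 was higher and the median was -0.19. In that list Rgs4, a brake on G protein signalling, had -0.48 and -0.04, and its other probe had -0.18 and 0.03. Inhba, an activin subunit gene, had -0.32 and -0.19, and Sik1, a kinase gene of the CREB loop, -0.40 and -0.07. None of the 30 was past 1.2-fold on both arrays. Bdnf, the neurotrophin gene, had -0.06 and 0.07 and was singled out after its values were seen.

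Relatives of the 10 by family had medians that moved with the scaling. Among 18 measured MAP kinase phosphatase and ERK feedback genes, 6 were lower on both arrays and 2 higher (Dusp16 and Etv1), with a median of -0.05; median centring gave 15 lower, 1 higher and a median of -0.15. Spry4, an inhibitor of receptor tyrosine kinase signalling that ERK itself induces, had -0.32 and -0.32, Spred3 had -0.37 and -0.10, and Dusp14 had -0.14 and -0.21. Of 13 other Krüppel-like factor genes, 1 was lower on both arrays (Klf6, at -0.09 and -0.21) and 3 were higher (Klf2, Klf9 and Klf12), with a median of -0.02; median centring turned that tally, to 9 lower and 1 higher with a median of -0.21. Klf2 had 0.09 and 0.26 and Klf9, a target of glucocorticoids, 0.13 and 0.12. Other probes of Klf2, Klf6 and Klf9 had opposite signs on the arrays.

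Of 28 measured kinase, coactivator and factor genes that act on early gene promoters, 6 were lower on both arrays and 5 higher (Crtc3, Mef2a, Crebbp, Mrtfb and Camk2a), and the median was -0.01; with median centring 17 were lower, 3 higher and the median was -0.16. Prkaca, a catalytic subunit gene of protein kinase A, had -0.07 and -0.49, Crtc3, a CREB coactivator gene, 0.25 and 0.22, and Mef2a 0.30 and 0.15. The list of dimer partners of the Nr4a and Npas4 proteins also held Npas1 and Npas2, relatives of Npas4 rather than its partners. Of its 7 measured genes, 3 were lower on both and 0 higher, with a median of -0.06 (4, 0 and -0.26 with median centring). These 3 were the retinoid X receptor genes Rxrg (-0.36 and -0.17), Rxra (-0.24 and -0.08) and Rxrb (-0.14 and -0.04). Arnt2, the usual partner of Npas4, had 0.25 and -0.10 and was singled out after its values were seen.

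Synaptic partners of Homer1 and Arc stood at a median of -0.03, with 5 of 14 measured genes lower on both arrays and 4 higher (Grin2a, Grin2b, Gria1 and Itpr1). The list held 18 genes, and Shank1, Shank2, Shank3 and Grm5 were not measured. Median centring gave 10 lower, 1 higher and a median of -0.17. Grin2a, an NMDA receptor subunit gene, had 0.41 and 0.53 and was past 1.2-fold on both. In that direction 1.44% of all genes and transcripts were, and 31 of the 13319 genes with a symbol. Grin2b had 0.34 and 0.14, and its 4 other probes were also above 0 on both arrays. Dlg4, the gene of the scaffold PSD-95, had -0.26 and -0.14.

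**Figure D4:**
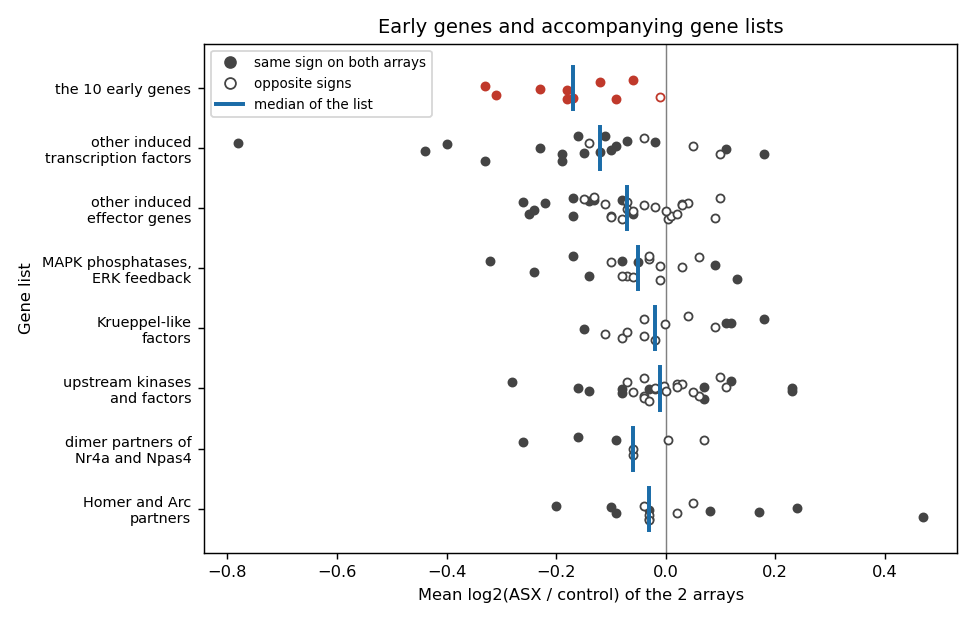
Mean log2 ratio of ASX over control (horizontal axis) of each measured gene in the early gene set (red) and in 7 accompanying lists (grey); filled points have the same sign on both arrays, open points opposite signs, and the blue bar is the list's median. The medians run from -0.17 for the 10 early genes to -0.01 for upstream kinases and factors. The list drawn as dimer partners also holds Npas1 and Npas2, relatives of Npas4.

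Markers of hippocampal neurons were present: 8 of 10 markers of dentate granule cells, 7 of 7 of CA1 and 7 of 8 of CA2 and CA3 pyramidal cells were measured, and Dsp, Lct and Bok had no probe past the brightness filter. Their medians were 0.06, 0.02 and -0.05; with median centring, which took all genes to -0.104, the granule cell and CA1 medians were -0.06 and -0.18. Of the granule cell markers, 0 were lower on both arrays and 4 were higher, or 3 and 1 with median centring. Markers of striatal neurons lay on the side of the early genes: 8 of 9 were lower on both arrays and 0 higher, with a median of -0.24, and all 9 were above background in both RNAs. Their summed level after normalization was 28420 in the ASX RNA against 34594 in the control RNA on array 1, and 18898 against 25252 on array 2. Thalamic and habenular markers were lower on both arrays in 6 of 8 measured cases (median -0.14; summed level 9513 against 11037 and 7006 against 7193). Of the markers of choroid plexus and ependyma, 6 of 7 were lower on both (median -0.13, Kcnj13 and Tmem212 not measured). Ttr was higher on both, at 0.08 and 0.12. The summed level of the 7 was 25955 against 27257 and 20116 against 20370. Meningeal fibroblast markers went the other way, 7 of 9 higher on both arrays with a median of 0.21, or -0.13 with spike-in centring, which took all genes to -0.301 (36818 against 36976 and 26398 against 23613). Of 5 measured blood cell markers, 3 were lower and 2 higher, with summed levels of 10312 against 15344 and 7717 against 9626 (Hbb-bs, Ngp and Camp not measured). The 3 were the red cell genes Hba-a1, Hbb-bt and Alas2, with means of -0.46, -0.53 and -0.29. The 2 were the neutrophil genes S100a8 and S100a9, with means of 0.65 and 1.27. Both were at least 1.5-fold higher on both arrays, as were 0.0635% of all genes and 4 of 13319 with a symbol. Other marker lists had medians nearer 0. Lower on both arrays were 4 of 10 neocortical neuron markers (median -0.07) and 0 of 8 astrocyte markers (-0.04). The same held for 1 of 8 oligodendrocyte (-0.05), 3 of 7 microglial (-0.04) and 3 of 8 endothelial and pericyte markers (-0.06). With median centring the medians of these lists ran from -0.24 to -0.18. The part of all these markers, and of the tissue they stand for, in the values of the early genes was not tested.

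With the scanner's own ratios, with local background subtracted and with a smaller offset of 16, 9 of the 10 genes again lay below 0 on both arrays. Leaving out the brightness filter could not change which genes lay there, since all 13 probes of the 10 genes passed it. Centring each array on its median left 8 there, Nr4a3 and Homer1 not among them, and moved the median of the 10 to -0.34 and that of all genes to -0.104, with 48.1% of all genes below 0 on both arrays. Without a brightness-dependent fit Arc had -0.24 and -0.65, and Nr4a1 had -0.14 and -0.48. Relative to all means, Npas4 stayed between percentiles 0.274 and 1.2, and Nr4a2 between 0.140 and 2.38, over all 10 settings that used both arrays. Of these settings, the value table repeated the scanner's ratios. Spike-in centring differed from median centring by a constant per array, so both gave the same percentiles. Arc ran from 0.318 to 6.47, Dusp6 from 0.576 to 8.66, Klf4 from 1.03 to 7.34 and Ier2 from 2.84 to 8.49, while Nr4a3 ran from 10.7 to 71.4. The count at or below the 5th percentile was 6 here but 2 with the scanner's ratios.

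**Figure D5:**
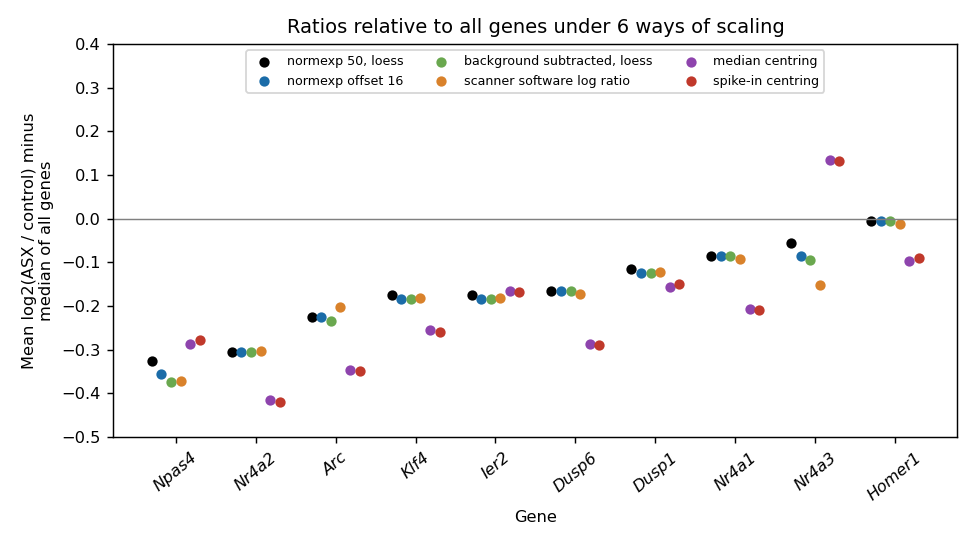
Mean log2 ratio of each gene minus the median of all genes (vertical axis) under 6 ways of correcting background and scaling, each in its own colour. Npas4, Nr4a2 and Arc lie at or below -0.20 under each of the 6, and Nr4a3 lies at 0.13 with median and spike-in centring.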

How the data were processed

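Agilent Feature Extraction 11.0.1.1 read the scans, per the submitters' processing notes. Per the file headers, each spot's deposited intensity is a pixel median, with a median local background, not normalized; the deposited processed intensity was background-subtracted and dye-normalized by that software. The deposited log10 ratio is processed Cy5 over Cy3, and the deposited value table holds the same log10 ratios, not turned for the dye swap (medians 0.00503 and 0.00826, largest difference 5e-08). From the median signals, limma 3.58.1 (R 4.3.3) applied normexp (offset 50) and then loess within each array, with control spots at weight 0. Each log2 ratio was expressed as ASX over control, and replicate spots were averaged per probe. Control spots (1639 of 45018) and 3 outlier spots were left out; no spot was saturated. The steps were tested on simulated data with known ratios. Recovery was scored on brighter spots only, and the Nr4a3 probe and the dimmer Ier2 probe fall below that brightness.

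Accessions were named through RefSeq (GRCm38.p6): 23372 of 41171 probes matched 1 symbol, 17799 none. Spots above background made up 75.8% to 78.2% per RNA and array. For probes with 9 or 10 spots, the SD over spots of the mean log2 ratio had a median of 0.034. Precision is limited by the number of arrays. Members and lists were chosen with earlier results of these data known. Named were all 10 members and, from each list, genes past 1.5-fold on both arrays (up to 4) or the largest absolute means up to 3; others named for a small count were chosen after their values were seen. Some genes of the lists are counted but not reported by name. Alternatives tried were other background corrections, scalings, filters, probe summaries, folds and single arrays.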

Additional observations from a re-analysis of the deposited data

How the results depend on the processing

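The count of early genes at least 1.5-fold lower on both arrays was 0, and 1 with spike-in centring, where Arc had -0.60 and -0.69. Spike-in centring put 69.8% of all genes below 0 on both arrays. Over single arrays the count was 0 to 1, the 1 being Nr4a2 on array 1. The share of all genes past 1.5-fold was not taken with spike-in centring or on single arrays. In the main setting the count was also 0 with 1.2-fold as the limit. With 2-fold it had to be 0, since it was 0 at 1.5-fold. The median of the 10 genes was -0.34 with median centring and -0.53 with spike-in centring, under which all genes had a median of -0.301; over single arrays it was -0.12 to -0.20. With the other 7 alternatives that used both arrays it lay between -0.18 and -0.16. Looser brightness filters were among these and could not move it, since all probes of the 10 genes passed the main filter. The cause of the shifts in this median was not tested. The count below 0 on both arrays was 8 to 9 over alternatives with both arrays. The count below 0 on a single array, a looser measure, was 10 on array 1 and 9 on array 2. Of all genes, 50.5% and 50.2% lay below 0 on these arrays. No paired analysis was possible because the arrays were counted as 1 replicate, the labels not saying how the RNA was combined. Nr4a3 was read by 1 dim probe, and its mean changed sign with median centring.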
